A study of Homo sapiens with 10 samples.

Results

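The 8 genes described here encode regulators of epithelial identity: the grainyhead-like transcription factors GRHL1, GRHL2 and GRHL3, the zinc-finger repressors OVOL1 and OVOL2, the splicing regulators ESRP1 and ESRP2, and TP63, the p53-family factor of stratified epithelia. They are 8 of 19970 protein-coding genes of the RefSeq table. Their members are the open-chromatin regions inside each gene or within 50 kb of either end, taken from 10 peak lists made by ATAC-seq, an assay that reads accessible DNA through the cuts of a transposase. Merging the lists left 160 such regions of 168719 in the genome, of which 119 of 120452 came from the 6 degron lists and 155 of 157584 from the 4 WT and KO lists. Many of these regions lie in a neighbouring gene, so a region is tied to a member by position only.

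All libraries were made from DLD-1, an established human colorectal adenocarcinoma line, with 50000 viable cells each. The genotype GATA6-AID-IAA7, in which the endodermal transcription factor GATA6 carries an auxin-inducible degron, gave 3 groups of 2 libraries: AID_ctrl, AID_aux and AID_wash. AID_ctrl carries the treatment label auxin but also the time 0 h and a title naming it a control, so it was taken to be untreated. AID_aux had 12 h of auxin (500 µM IAA in the protocol), and AID_wash was labelled as washed out, with a time of 1 and no unit. The groups WT (unedited GATA6) and KO (genotype GATA6-KO) gave 2 libraries each, without auxin in their labels. The protocol speaks of positive GATA6-IAA7 clones, and how many clones stand behind each group is not stated in those protocols. The labels do not say that replicates were separate cultures, so the spread between them may be technical. Peak lists hold no protein or RNA level, so the removal of GATA6 was not checked with them.

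Grainyhead-like proteins bind a shared DNA motif and maintain the genes of cell junctions, and GRHL2 is the family member best known for keeping epithelial enhancers accessible. OVOL1 and OVOL2 repress mesenchymal genes such as ZEB1, and ZEB1 in turn represses epithelial genes including OVOL and ESRP genes. ESRP1 and ESRP2 bind pre-mRNA and favour the epithelial isoforms of FGFR2, CD44 and CTNND1. TP63 drives the basal programme of stratified epithelia such as skin, and the colon is lined by a simple epithelium.

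RefSeq promoter sequences (GRCh38.p14, plus strand) were matched for GRHL1, GRHL3 and TP63, 3 of the 8 genes, and are shown so that the calls can be read against their starts. Each runs from 250 bases before the start to 20 bases after it, and capitals mark a GATA site (GATAA or its reverse complement TTATC) or an E-box (CACCTG or its reverse complement CAGGTG), the element that ZEB and SNAI repressors are known to bind.
GRHL1, chr2:9951443-9951712: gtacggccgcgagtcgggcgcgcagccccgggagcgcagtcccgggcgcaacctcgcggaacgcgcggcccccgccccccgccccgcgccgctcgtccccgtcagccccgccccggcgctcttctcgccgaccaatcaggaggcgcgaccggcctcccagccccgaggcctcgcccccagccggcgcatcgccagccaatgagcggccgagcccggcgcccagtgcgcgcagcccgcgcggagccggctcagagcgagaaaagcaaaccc
GRHL3 start 1, chr1:24319107-24319376: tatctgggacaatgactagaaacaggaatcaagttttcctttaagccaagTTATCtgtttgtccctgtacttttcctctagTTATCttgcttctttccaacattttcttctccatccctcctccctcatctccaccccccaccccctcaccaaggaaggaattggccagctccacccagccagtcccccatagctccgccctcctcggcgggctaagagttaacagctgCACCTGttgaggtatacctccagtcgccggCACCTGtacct
GRHL3 start 2, chr1:24322790-24323059: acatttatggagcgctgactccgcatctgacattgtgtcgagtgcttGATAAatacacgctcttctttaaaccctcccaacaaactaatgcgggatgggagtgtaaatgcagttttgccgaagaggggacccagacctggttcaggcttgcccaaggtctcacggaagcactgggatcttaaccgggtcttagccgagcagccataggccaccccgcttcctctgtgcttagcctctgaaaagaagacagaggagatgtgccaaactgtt
TP63, chr3:189631139-189631408: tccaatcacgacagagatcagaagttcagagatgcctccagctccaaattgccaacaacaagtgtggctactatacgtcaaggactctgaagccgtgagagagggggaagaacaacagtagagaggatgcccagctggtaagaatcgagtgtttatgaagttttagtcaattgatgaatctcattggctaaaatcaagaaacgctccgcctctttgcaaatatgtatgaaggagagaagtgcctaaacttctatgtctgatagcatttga

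The GRHL1 promoter and the first GRHL3 promoter were overlapped by a peak in 10 of 10 libraries, and the second GRHL3 promoter and the TP63 promoter in 0 of 10. GC content was 79.3% for GRHL1, 51.9% and 51.5% for the 2 GRHL3 promoters and 43.3% for TP63. At the first GRHL3 start the strongest summit lay −2, −3, 1, 2, 0 and −8 bp from the start in AID_ctrl 1 and 2, AID_aux 1 and 2, and AID_wash 1 and 2. The summit thus stayed within 8 bp of that start in every degron library. At GRHL1 the summits lay −25, −54, −39, −35, −31 and −76 bp from the start, in the same order. Distances to peaks were counted from the nearer edge of the window shown, not from the start. The second GRHL3 window lay 23 to 147 bp from the nearest degron peak and 387 to 444 bp from the nearest WT or KO peak. No start of TP63 other than the one shown was read. The TP63 window lies inside the gene and not at an end of it, and was farther from any peak. Its nearest peak lay 10449 to 10496 bp away in 5 degron libraries and 54549 bp away in AID_aux replicate 2. In the other lists it lay 10318 and 66646 bp away in WT, and 10316 and 10331 bp away in KO. The first GRHL3 promoter holds 2 GATA sites, at bases 51 and 82, and 2 E-boxes, at bases 230 and 260, counted from its first base. The second GRHL3 promoter holds 1 GATA site, at base 48, and GRHL1 and TP63 hold neither motif. None of the 4 windows holds the grainyhead motif AACCNGTT (reverse complement AACNGGTT), searched on both strands. Over 35116 promoters of the same length, 21.4% hold the GATA letters, 18.7% the E-box and 1.57% the grainyhead motif, so a match is a description of these letters and not a bound site. The GATA and E-box patterns do not overlap each other here.

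Cell type markers were read by peaks within 1000 bp of an end of the gene. The share of all genes with such a peak was not counted, so these calls alone do not establish cell identity. Of 9 colorectal epithelial markers, 7 (EPCAM, CDH1, CDX2, KRT8, KRT18, KRT20 and HNF4A) had such a peak in all 10 libraries, each library had 7 to 8, and CDH17 had none. Squamous or basal markers had 2 to 4 of 7 per library, with KRT13 in all 10 and KRT6A and DSG3 in none. Fibroblast markers had 1 to 3 of 6, with COL1A1 in all 10 and COL3A1, THY1 and LUM in none. Blood and immune markers had 2 to 3 of 5, with CD3E and CD14 in all 10 and CD79A in none. Endothelial markers had 0 to 1 of 4, with VWF and KDR in none. The lists differed in length: 154150 to 198493 peaks in the degron libraries, 92814 and 65939 in WT and 130311 and 116231 in KO, on chromosomes 1 to 22 and X. AID_wash replicate 1 and WT replicate 2 had the shortest list of their sets.

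**Figure D1:**
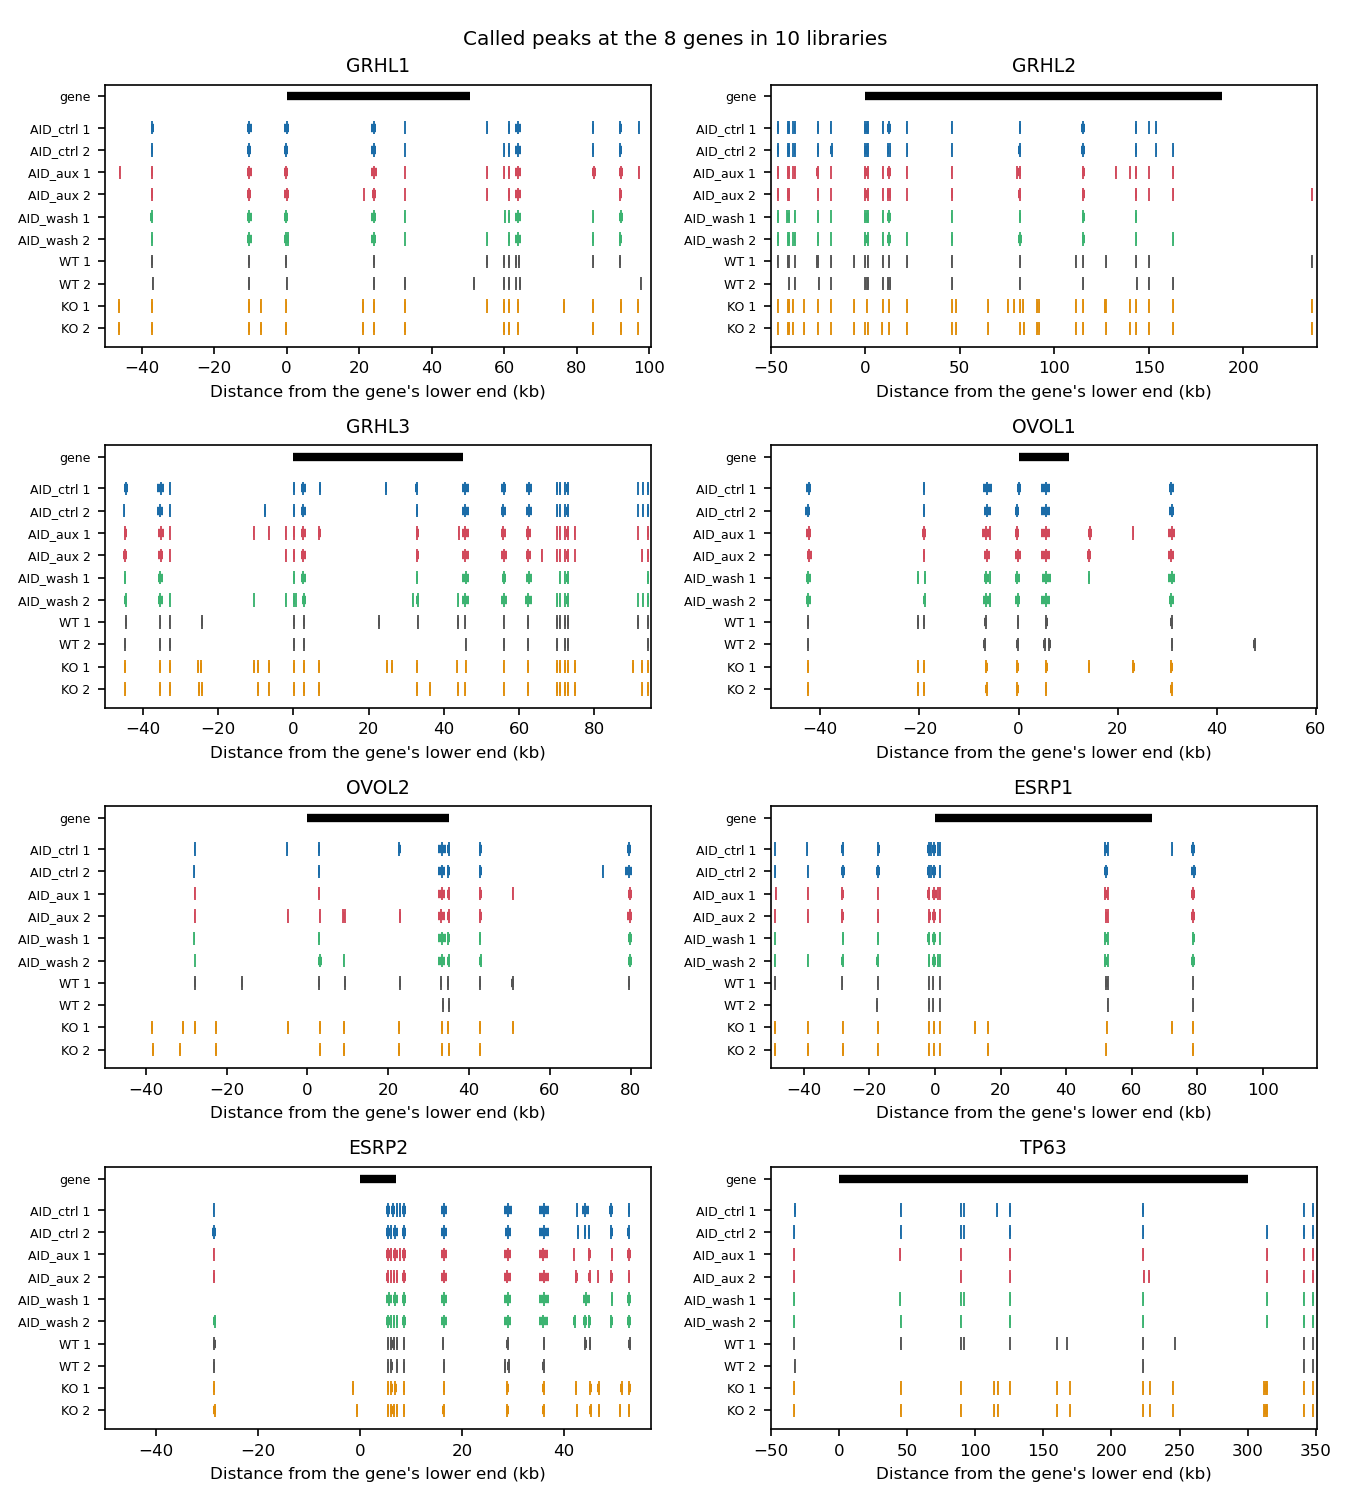
Called peaks at the 8 genes. Each panel plots distance from the gene's lower end in kb (x axis) against the 10 libraries (rows), with the gene as a black bar, each peak interval to scale and a thin line of fixed width at its middle. Lines stand above each other across most rows, and TP63 has few of them over a long gene.

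Of the 119 degron regions at the 8 genes, 66 (55.5%) were called in all 6 libraries, against 51.6% of all regions. A single library called 21 of the 119, and that count was not made over all regions. The shares called per library ran from 63.0% (75 regions, AID_wash replicate 1) to 83.2% (99 regions, AID_aux replicate 1), where all regions gave 60.8% and 79.5% in the same libraries. In the WT and KO lists 54 of 155 regions (34.8%) were called in all 4 libraries, against 31.9% of all regions, and the share was 54.4% without WT replicate 2. WT called 96 and 64 of the 155 regions and KO 135 and 120. In all 10 libraries, 47 of the 160 regions (29.4%) were called, against 26.8% of all regions. These shares were near the background, so they are no result about the 8 genes in particular. The median fold enrichment of member peaks, a deposited value of signal over local background, was 4.41 to 5.16 per degron library, below the 5.17 to 5.57 over all peaks.

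**Figure D2:**
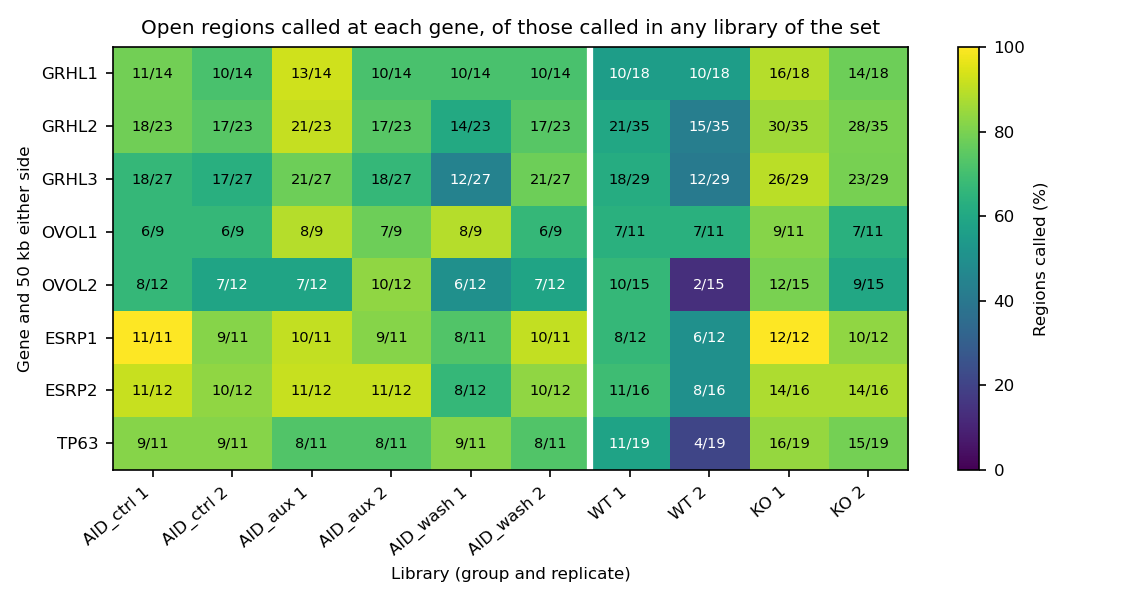
Regions called at each gene (rows) in each library (columns). Numbers give regions called of those called in any library of the set (6 degron lists left of the white line, 4 WT and KO lists right of it), and colour gives the same as a percentage. The lowest cells are WT replicate 2 at OVOL2 (2 of 15) and at TP63 (4 of 19).

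Regions near a gene end were called more constantly than those farther away. Within 1000 bp of an end of any protein-coding gene lay 20 member regions of the degron lists, of which 16 (80%) were called in all 6 libraries, against 50 of 99 (50.5%) farther away. Over all regions the same shares were 79.9% and 47.3%. In the WT and KO lists the member shares were 14 of 19 (73.7%) and 40 of 136 (29.4%), against 61.6% and 28.0% over all regions. The difference by position at the 8 genes was therefore like that of the genome.

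An end of the gene had a peak within 1000 bp in all 10 libraries at 7 of the 8 members. The same share over all protein-coding genes was not counted, so this is no trait particular to these genes. The markers COL1A1, CD3E, CD14 and KRT13 had such an end too. At the members it was the lower-coordinate end of GRHL1, GRHL2, OVOL1 and ESRP1, the upper-coordinate end of OVOL2 and ESRP2, and both ends of GRHL3. TP63 had no peak within 1000 bp of either end in any library. GRHL1 and GRHL2 had the highest fold enrichment at an end in each degron library, and OVOL1 had the lowest of the 7. At GRHL1 the fold was 8.62 and 10.6 in AID_ctrl, 9.91 and 10.2 in AID_aux, and 8.81 and 10.4 in AID_wash. At GRHL2 it was 9.99 and 9.45, then 10.0 and 10.4, then 9.08 and 9.61, so both AID_aux values were above the other 4 by a margin of 0.0431 over the nearest. At GRHL1 the AID_aux values lay inside the ranges of both other groups. At OVOL1 the fold was 3.15 and 3.50 in AID_ctrl, 3.19 and 4.13 in AID_aux, and 4.62 and 3.49 in AID_wash. At ESRP1 it was 5.55 and 5.46, then 5.40 and 5.27, then 5.55 and 5.02. The ESRP2 end gave 4.89 and 4.10 in AID_ctrl, 5.08 and 5.33 in AID_aux, and 5.44 and 4.47 in AID_wash. AID_ctrl and AID_wash overlapped at these 3 genes, and AID_aux lay below both AID_ctrl values at ESRP1. Over the whole ESRP2 region across that end, chr16:68234087-68236422, AID_ctrl reached 5.22 and 4.63, so AID_aux overlapped it there. At OVOL2 the strongest summit within 1000 bp fell in either of 2 regions, which are given apart. The region across its end, chr20:18058642-18059494, had 5.38 and 5.42 in AID_ctrl, 6.49 and 6.44 in AID_aux, and 4.48 and 5.92 in AID_wash. Both AID_aux values were above the other 4 there. The next region, chr20:18056445-18058349 inside OVOL2, had 7.17 and 5.89, then 6.32 and 6.08, then 7.32 and 5.42, with AID_aux inside the range of both other groups. At GRHL3 the lower end had 4.98 and 5.78, then 4.92 and 5.19, then 5.10 and 6.46. The upper end, which is also inside STPG1, had 8.03 and 9.44, then 8.05 and 7.45, then 7.79 and 8.14. The deposited folds were not scaled between libraries. In bulk chromatin a lower value in every cell and an opening in fewer cells cannot be told apart.

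**Figure D3:**
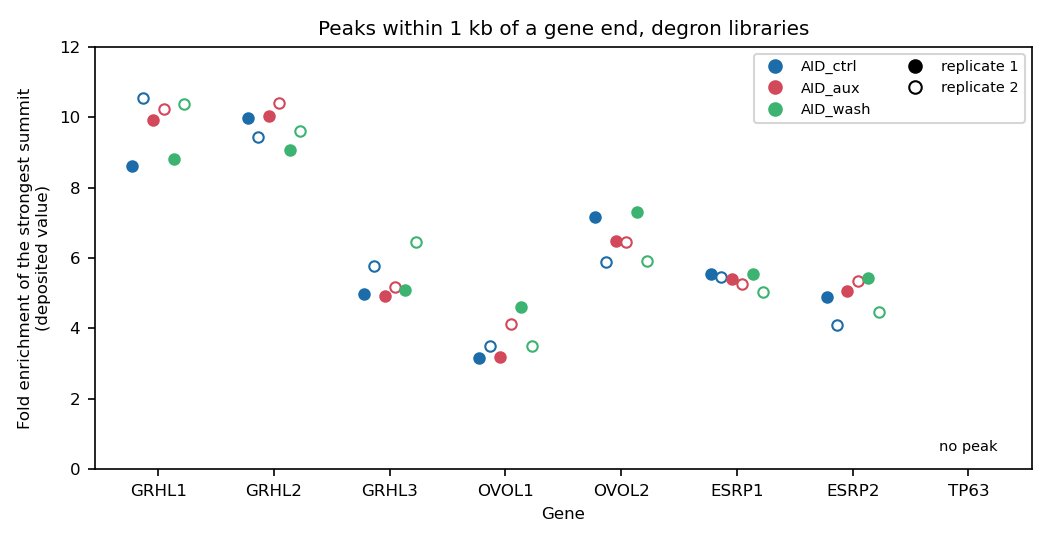
Deposited fold enrichment (y axis, linear) of the strongest summit within 1000 bp of a gene end, for the 8 genes (x axis) in the 6 degron libraries, with filled points for replicate 1 and open points for replicate 2. The lower end of GRHL3 is drawn, and at OVOL2 the strongest summit lies in either of 2 neighbouring regions. GRHL1 and GRHL2 sit between 8.62 and 10.6, OVOL1 between 3.15 and 4.62, and TP63 has no peak.

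Each gene's highest-ranked region was chosen by the median over the 6 lists of its rank by −log10 p. GRHL2 (chr8:101492439-101681200) had 23 degron regions, 12 of them called in all 6 libraries, and its highest-ranked region was its own end, chr8:101491655-101492884, in the top 0.874% of peaks by median rank. GRHL1 (chr2:9951693-10002277) had 14 regions, 8 called in all 6. Its highest-ranked region, chr2:9914129-9914981, lay inside TAF1B, 36712 bp below GRHL1, with a fold of 16.7 and 20.5 in AID_ctrl, 20.3 and 19.1 in AID_aux, and 15.6 and 18.3 in AID_wash. GRHL3 (chr1:24319357-24364482) had 27 regions, 12 called in all 6, and 13 of the 27 lay in another gene, STPG1 or NIPAL3. Its highest-ranked region, chr1:24374598-24376147, lay in STPG1 with folds of 13.8 and 12.6, then 11.6 and 10.9, then 11.5 and 12.0. Both AID_ctrl values were above the other 4 there.

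OVOL1 (chr11:65787063-65797214) had 9 regions, 6 called in all 6 libraries. Its highest-ranked region, chr11:65791600-65793524, lay inside the gene and also inside LOC124902693, with folds of 8.34 and 9.27 in AID_ctrl, 9.47 and 8.75 in AID_aux, and 11.7 and 7.98 in AID_wash. OVOL2 (chr20:18024152-18059188) had 12 regions, 6 called in all 6. Its highest-ranked region, chr20:18102734-18104470, lay 43546 bp above the gene, in no other protein-coding gene, with folds of 12.6 and 10.5, then 8.41 and 6.64, then 11.6 and 13.1. Both AID_aux values were below the other 4, and WT replicate 1 alone of the WT and KO libraries called it.

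ESRP1 (chr8:94641174-94707466) had 11 regions, 8 called in all 6, and its highest-ranked region, chr8:94719165-94720600, lay at an end of DPY19L4. The folds there were 13.0 and 13.6 in AID_ctrl, 11.5 and 14.0 in AID_aux, and 10.1 and 10.2 in AID_wash, with AID_wash below the other 4. Inside ESRP1 the region chr8:94692652-94693925 had 14.4 and 13.4, then 16.8 and 14.7, then 15.0 and 15.0. ESRP2 (chr16:68229033-68236127) had 12 regions, 8 called in all 6, and 9 of the 12 lay in NFATC3, PLA2G15 or SLC7A6. Its highest-ranked region, chr16:68264019-68266066, lay at an end of SLC7A6 with folds of 7.67 and 7.96, then 7.84 and 8.47, then 9.25 and 8.83.

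TP63 (chr3:189596746-189897276) is the longest of the 8 genes and had 11 regions, 6 called in all 6 libraries and 7 inside the gene. Peaks covered 1.31% to 1.90% of its window per degron library, the lowest share of the 8 genes, against 8.78% to 9.83% at ESRP2. Its highest-ranked region, chr3:189937174-189938458, lay 39898 bp above the gene with folds of 13.4 and 12.2 in AID_ctrl, 13.1 and 14.3 in AID_aux, and 15.4 and 13.8 in AID_wash. TP63 thus had strong regions in its surroundings and none at an end. For the limit of 50 kb, the farthest region of the degron lists kept was at GRHL3, 48887 bp away, with folds of 2.39 to 3.05. The nearest region of the degron lists left out was also at GRHL3, 50779 bp away, with folds of 4.13 to 4.69.

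The first comparison, AID_aux against AID_ctrl, asked what 12 h of auxin changed. A region listed by both libraries of the reference group and by none of the compared group is called lost. The opposite is called gained, and a region listed by all 4 is retained. With 2 libraries against 2 no exact test can go below p = 0.33, so counts are set beside those over all regions and carry no p-value. Of 116 member regions called in these 4 libraries, 2 were lost (1.72%, against 2.36% of all regions), 3 were gained (2.59%, against 2.58%) and 72 were retained (62.1%, against 59.6%). The member shares were near the background, so the counts are no result about these genes. All 5 regions lay more than 1000 bp from any gene end.

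The lost regions were inside GRHL2 and TP63. The GRHL2 region, chr8:101646342-101646567, had folds of 4.02 and 4.07 in AID_ctrl and was listed in none of the other 8 libraries. The TP63 region, chr3:189688272-189688793, had 6.75 and 5.26 in AID_ctrl and 4.63 in AID_wash replicate 1, and was otherwise listed only in WT replicate 1. It was the 1 member region called by both AID_ctrl and at least 1 WT library and by no AID_aux or KO library (0.625% of 160, against 0.345% of all regions). None was called by both AID_ctrl and both WT libraries and by no AID_aux or KO library (0 of 160, against 0.126%).

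The gained regions were 2 at GRHL3 and 1 at OVOL1. The region chr1:24317181-24317358, 1999 bp below GRHL3, had folds of 2.99 and 2.69 in AID_aux and 2.68 in AID_wash replicate 2. The region chr1:24394077-24394245, inside STPG1, had 2.69 and 3.10 in AID_aux, was in no other degron library, and was called by both KO libraries and not by WT. At OVOL1 the region chr11:65800899-65801809, 3685 bp above the gene, had 4.23 and 6.98 in AID_aux and 5.05 in AID_wash replicate 1, and KO replicate 1 called it too. All folds of the 2 GRHL3 gains were below the median of their lists. When both calling libraries had to rank in the top 50% of their list, 0 member regions were lost and 0 gained. Leaving out AID_ctrl replicate 1 gave 4 lost and 6 gained regions, and leaving out AID_ctrl replicate 2 gave 5 and 5. Leaving out AID_aux replicate 1 gave 7 lost and 10 gained, and leaving out AID_aux replicate 2 gave 3 and 12.

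**Figure D4:**
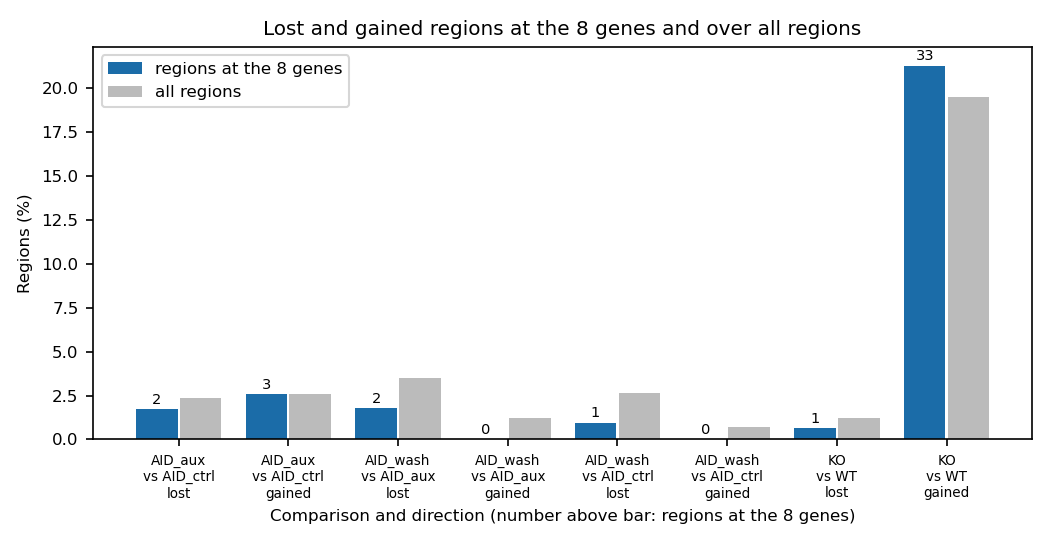
Lost and gained regions as a percentage of tested regions (y axis) for 4 comparisons (x axis), at the 8 genes (blue, with the number of regions above each bar) and over all regions (grey). Only KO against WT has a tall pair of bars for gains, 21.3% at the 8 genes and 19.5% over all regions.

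Among retained regions the fold enrichment was ordered by group at some of them, which was counted after the values had been seen. Both AID_aux values were below both AID_ctrl values in 16 of 72 retained member regions (22.2%, against 15.8% of all retained regions) and above them in 14 (19.4%, against 22.3%). Of the 66 regions called in all 6 libraries, AID_aux was below the other 4 libraries in 8 (12.1%, against 6.06%) and above them in 11 (16.7%, against 12.8%). The 8 lower regions were 3 at TP63, 2 at ESRP1 and 1 each at GRHL3, ESRP2 and OVOL2. Of the 11 higher regions, 3 were at GRHL3, 3 at GRHL2, 2 at OVOL1 and 1 each at GRHL1, ESRP2 and OVOL2. Without AID_aux replicate 1 the lower count was 17, and without AID_aux replicate 2 the higher count was 20. With each fold replaced by its percentile within its own list, 8 were lower and 7 higher.

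The widest margins between AID_aux and AID_ctrl were at TP63, GRHL3 and OVOL2. Inside TP63, chr3:189721608-189722849 had folds of 8.03 and 9.16 in AID_ctrl, 5.51 and 4.37 in AID_aux, and 6.71 and 8.34 in AID_wash, and was called by WT replicate 1 and KO replicate 1. Inside GRHL3, chr1:24351771-24352766 had 4.73 and 4.22, then 7.24 and 8.0, then 4.59 and 5.39, and was called by WT replicate 1 and both KO libraries. The third, chr20:18102734-18104470 above OVOL2, is described above. Below ESRP1, chr8:94623275-94624346 had 8.04 and 10.0 in AID_ctrl, 6.72 and 6.12 in AID_aux, and 8.41 and 11.0 in AID_wash, and all 4 WT and KO libraries called it. The regions of this paragraph were picked for the order of their folds, so that order is no separate result. At the TP63, OVOL2 and ESRP1 regions AID_aux lay below the other groups. At the GRHL3 region AID_aux lay above the other groups. No test was run on these differences in fold.

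**Figure D5:**
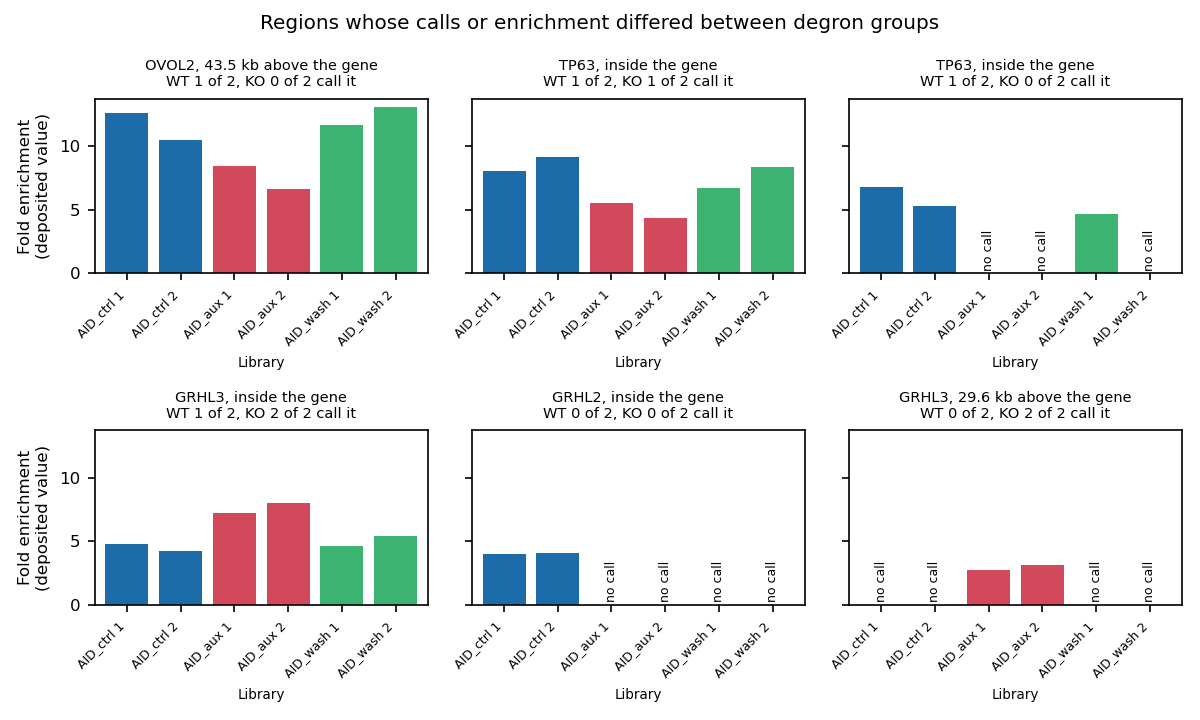
Deposited fold enrichment (y axis, linear from 0) in the 6 degron libraries (x axis) at 6 regions near OVOL2, TP63, GRHL3 and GRHL2, with no bar where a library lists no peak. The panels show, among others, the OVOL2 region with AID_aux at 8.41 and 6.64 and the other 4 libraries at 10.5 to 13.1.

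The wash comparisons asked whether calls went back once auxin was removed. Against AID_aux, AID_wash had lost 2 of 113 member regions (1.77%, against 3.48% of all regions) and gained 0 (against 1.21%). The lost regions were chr1:24394077-24394245 at GRHL3, also gained with auxin, and chr8:101642352-101642678 inside GRHL2. The latter had folds of 4.75 in AID_ctrl replicate 1 and 6.05 and 3.93 in AID_aux, and all 4 WT and KO libraries called it. Against AID_ctrl, AID_wash had lost 1 of 105 (0.952%, against 2.67%) and gained 0 (against 0.685%). That region was chr8:101646342-101646567 in GRHL2, the one also lost with auxin. These comparisons share libraries with the first one and are not independent of it. Without AID_aux replicate 1, AID_aux replicate 2, AID_wash replicate 1 or AID_wash replicate 2, AID_wash lost 10, 12, 3 or 11 regions against AID_aux and gained 3, 0, 2 or 2. Without AID_ctrl replicate 1, AID_ctrl replicate 2, AID_wash replicate 1 or AID_wash replicate 2, it lost 3, 10, 2 or 10 against AID_ctrl and gained 1, 1, 6 or 2.

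In fold enrichment, AID_wash lay below both AID_aux libraries in 18 of 68 retained member regions (26.5%, against 28.1% of all) and above them in 11 (16.2%, against 11.2%). Of the 18 lower regions 7 were at GRHL2. Of the 11 higher regions 3 were at TP63, and they included chr3:189721608-189722849 and the region above OVOL2 named before. Against AID_ctrl, AID_wash lay below in 13 of 69 (18.8%, against 23.3%) and above in 11 (15.9%, against 11.9%).

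KO against WT asked what lasting loss of GATA6 changed. At OVOL1 (WT 7 and 7, KO 9 and 7 regions) and OVOL2 (WT 10 and 2, KO 12 and 9) the groups overlapped, and at each of the other genes both KO libraries listed more regions than either WT library. Over all regions KO listed 82.0% and 73.0% and WT 57.3% and 40.5%. Of 155 member regions, 33 were gained (21.3%, against 19.5% of all regions), 1 was lost (0.645%, against 1.24%) and 54 were retained (34.8%, against 31.9%). The gained share was near the background. The KO lists were longer than the WT lists (130311 and 116231 against 92814 and 65939 peaks), and the part of list length in the gains was not tested. Without WT replicate 1 the gained count was 60, without WT replicate 2 it was 35, without KO replicate 1 it was 36 and without KO replicate 2 it was 48. The lost count was 7, 10, 1 and 2 in the same order.

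Among the grainyhead-like genes, GRHL2 had 8 gained regions of 35, GRHL3 had 6 of 29 and GRHL1 had 4 of 18. Those of GRHL2 lay inside the gene at chr8:101540297-101540855, chr8:101557291-101557857, chr8:101575803-101576431, chr8:101583292-101583791, chr8:101584367-101584867 and chr8:101631984-101632511, and below it at chr8:101453898-101454398 and chr8:101459794-101460318. No degron library called 7 of these 8. The GRHL3 gains were chr1:24293838-24294562, chr1:24309688-24310236 and chr1:24312500-24313004 below the gene, chr1:24326003-24326506 inside it, and chr1:24393892-24394392 and chr1:24411894-24412413 in STPG1. The region chr1:24393892-24394392 was the 1 member region called by both AID_aux and both KO libraries and by no AID_ctrl or WT library (0.625% of 160, against 0.65% of all regions). The GRHL1 gains were chr2:9905275-9905815 in TAF1B, chr2:9944250-9944778 below the gene, chr2:9972594-9973097 inside it and chr2:10048491-10048998 in KLF11.

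The 1 lost region, chr8:101454977-101455520, lay 36919 bp below GRHL2 and was called by both WT libraries and neither KO library. The overlapping degron region had folds of 4.36 and 3.78 in AID_ctrl, 2.77 in AID_aux replicate 1, and 5.52 and 5.49 in AID_wash, with no call in AID_aux replicate 2. At the end of GRHL2, KO replicate 1 did not list chr8:101492054-101492655, which the other 3 libraries listed, while all 4 listed chr8:101492883-101494362 just inside the gene.

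TP63 had 8 gained regions of 19, the highest number with GRHL2. They were chr3:189710550-189711075, chr3:189712947-189713470, chr3:189766134-189766776, chr3:189824466-189825024 and chr3:189841518-189842050 inside the gene, and chr3:189908731-189909271, chr3:189909535-189910035 and chr3:189910950-189911466 above it. No degron library called 5 of these 8. WT called 11 and 4 of the 19 TP63 regions and KO 16 and 15. None of the 4 libraries had a peak at an end of TP63, so the gains lay inside or above a gene with no called end.

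ESRP2 had 3 gained regions of 16, chr16:68271153-68271818, chr16:68275553-68276161 and chr16:68279728-68280601, all in SLC7A6. ESRP1 had 2 of 12, chr8:94602142-94602735 below the gene and chr8:94657032-94657543 inside it. OVOL2 had 2 of 15, chr20:17985529-17986113 in MGME1 and chr20:18001364-18001897, and OVOL1 had 0 of 11. WT replicate 2 called only 2 of the 15 OVOL2 regions, both at or near its upper end. In all, 19 of the 33 gained regions (57.6%) were called in no degron library, against 41.1% of all 30771 regions gained in KO. Of the 33, 14 lay inside the member gene, 8 lay in another gene, and 4 were called by both AID_ctrl libraries. All of them were more than 1000 bp from a gene end.

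A comparison of the degron and knockout lists gave few regions that divided them. The 1 member region called by all 6 degron libraries and no WT or KO library (0.625%, against 0.247% of all regions) was chr16:68277939-68278630, in SLC7A6 near ESRP2. Its folds were 5.61 and 4.78 in AID_ctrl, 3.29 and 4.89 in AID_aux, and 3.14 and 4.01 in AID_wash. No member region was called by all 4 WT and KO libraries and no degron library (against 0.367%). With the OVOL2 region at chr20:18102734-18104470, 2 member regions were called by all 6 degron and no KO library (1.25%, against 0.584%).

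Genes that work with the 8 regulators were read in the same way. The junction and epithelial targets of GRHL and OVOL factors (12 genes) had 182 degron regions, of which 141 (77.5%) were called in all 6 libraries, where the 8 regulators had 55.5% and all regions 51.6%. With auxin 3 of 180 were lost (1.67%, against 2.36% of all regions) and 0 gained (against 2.58%). In KO 5 of 204 were lost (2.45%, against 1.24%) and 16 gained (7.84%, against 19.5%). DSP, which encodes desmoplakin, had 1 region lost with auxin, and 2 lost and 1 gained in KO. In KO, CLDN4, a tight-junction claudin, had 0 lost and 4 gained, CLDN7 had 2 lost and 1 gained, and RAB25, a GTPase of epithelial membrane traffic, had 1 lost and 2 gained. An end of each of these 4 genes was called in all 10 libraries.

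The 6 EMT repressor genes, which drive the epithelial-mesenchymal transition that OVOL factors oppose, had 37 degron regions. Of these 18 (48.6%) were called in all 6 libraries, and with auxin 0 of 37 were lost and 0 gained (against 2.36% and 2.58% of all regions). In KO 0 of 57 were lost (against 1.24%) and 14 gained (24.6%, against 19.5% of all regions): SNAI1 had 5, ZEB1 had 3, SNAI2 had 2 and TWIST2 had 2 of them. An end of ZEB1 and of SNAI1 was called in all 10 libraries, that of TWIST2 in 9 and that of SNAI2 in 0. The ESRP-spliced genes (6) had 79 degron regions, 62.0% called in all 6 libraries. With auxin 1 was lost (1.27%, against 2.36% of all regions) and 4 gained (5.06%, against 2.58%), and in KO 4 of 98 were lost (4.08%, against 1.24%) and 13 gained (13.3%, against 19.5%). CD44, a hyaluronan receptor, had 1 gained with auxin, and 1 lost and 6 gained in KO. CTNND1, which encodes p120-catenin, had 1 lost with auxin and 2 gained in KO. ENAH, an actin regulator, had 1 gained with auxin, and 3 lost and 1 gained in KO, and ARHGEF11, a guanine nucleotide exchange factor, had 1 and 4 gained.

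The squamous and basal genes (8), of the stratified programme that TP63 drives, had 74 degron regions, 48.6% called in all 6 libraries. With auxin 1 of 70 was lost (1.43%, against 2.36% of all regions) and 5 gained (7.14%, against 2.58%), and in KO 2 of 99 were lost (2.02%, against 1.24%) and 15 gained (15.2%, against 19.5%). SPRR1A, a cornified-envelope gene, had 1 lost and 1 gained with auxin and 1 lost and 2 gained in KO, and its window shares regions with that of IVL. DSG3, a desmosomal cadherin, had 1 gained with auxin and 3 gained in KO. KRT13 and KRT14 had none with auxin, and 1 lost each with 4 and 3 gained in KO. The windows of these 2 genes overlap. Their 1 lost region is the same one, and gained regions may be shared too. An end was called in 10 libraries at KRT13, 4 at SPRR1A, 2 at KRT14 and 0 at DSG3. The 2 at KRT14 were both KO libraries, and the 4 at SPRR1A were AID_aux replicate 2, WT replicate 1 and both KO libraries. The family relatives (6 genes) had 66 degron regions, 57.6% called in all 6 libraries. With auxin 1 of 63 was lost and 1 gained (1.59% each, against 2.36% and 2.58% of all regions), and in KO 2 of 77 were lost (2.6%, against 1.24%) and 11 gained (14.3%, against 19.5%). TFCP2L1 had the region lost with auxin and UBP1 the gained one, both relatives of the grainyhead-like factors. In KO, TP73, a relative of TP63, had 1 lost and 5 gained, TFCP2 had 2 gained, and TFCP2L1 and UBP1 had 1 gained each. These lists were described by counts alone.

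The genes most like each member were read from the length that peaks covered in a gene's window, per length covered in the whole library and scaled to the gene's mean over 10 libraries. Likeness was the mean absolute difference of these scaled lengths over the 10 libraries, with 0 for the same profile. GRHL1 was nearest to ATG16L2 (0.0177) and MRPL4 (0.0238), where the median over 12377 compared genes was 0.121. GRHL2 was nearest to SMTNL2 (0.0216) and FAM53B (0.0313), with a median of 0.119 over 6394 genes. For GRHL3 the 2 nearest included MAP2K2 (0.0306), and for OVOL1 they were NLGN2 (0.0289) and HARS1 (0.0302). The nearest to ESRP1 were OTUD7B (0.0352) and ARFGAP2 (0.0371), and to ESRP2 PPP1CA (0.0304) and CCDC77 (0.0311). For TP63 the 2 nearest included PFKL (0.0428), with a median of 0.221 over 14133 genes. OVOL2 had the least close neighbours of the 8, BPIFC (0.0496) and GABRP (0.0596), with a median of 0.203 over 13975 genes. The profiles follow how much each library called as well as the gene, and say nothing of shared control.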

How the data were processed

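ATAC-seq peak lists of 10 libraries in 5 groups of 2 were analysed. The submitters' processing notes list MACS2 2.1.1, Bowtie2 2.4.2, Trim Galore 0.6.10 and Picard, with hg38 as build. Settings, such as any shift for the transposase, were not stated there. The authors called peaks per library. The 6 deposited degron lists carry, per summit, a score, a fold enrichment ratio and the −log10 of p-values and q-values, and several summits can share an interval. Coordinates alone, as windows of 500 bp, fill the 4 lists deposited for WT and KO. No file gives counts, so depth is unknown, and these values are the authors' own, not scaled between libraries.

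Overlapping or touching peaks of the autosomes and X were merged, over the 6 degron lists, the 4 WT and KO lists or all 10. A library called a region with 1 bp of overlap, and the highest fold among its summits there was taken. Genes and promoters came from RefSeq (GRCh38.p14). The gene table has no strand, so ends are lower or upper by coordinate. Regions were named when lost or gained, or as the region of highest median rank of each gene. Pathway genes were named when they had a lost or gained region, up to 4 a list. The 2 most like genes had windows clear of the member's and a covered length within 2-fold of it, and a few genes these rules or lists give are not reported here. The members and lists were chosen with earlier results of these data known, and the orders of enrichment, the call patterns over 10 lists and the regions with the widest margins were chosen after seeing the values. Alternatives were the gene body alone, peaks covering at least 50% of a region, fixed 1000 bp windows, the top 50% of each list by −log10 p, equal list lengths of 154150 peaks, and each library left out. The counting was tested on simulated data. Python 3.11.15, pandas 2.3.3, NumPy 2.4.6 and matplotlib 3.10.9 were used.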

Additional observations from a re-analysis of the deposited data

How the results depend on the processing

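Depth is unknown, and a missing call does not show closed chromatin. With the gene body alone, auxin gained 0 member regions and AID_wash lost 1 against AID_aux, and KO lost 0 and gained 14. When a peak had to cover 50% of the region, auxin lost 4, AID_wash gained 2 against AID_aux, KO lost 2, and 46.2% were called in all 6 degron libraries. With fixed 1000 bp windows, auxin lost 4, AID_wash gained 1 against AID_aux and lost 3 against AID_ctrl, and KO lost 4. With the top 50% of each list, AID_wash gained 2 against AID_aux, and 64.6% of regions were called in all 6. With equal list lengths, auxin lost 5, and AID_wash gained 2 against AID_aux and lost 2 against AID_ctrl. For strong regions, an alternative chosen after seeing the data in which both calling libraries rank in the top 50%, lost and gained counts were 0 in all 3 degron comparisons. With percentiles of enrichment, also chosen after seeing the data, 7 regions had AID_aux above the other 4 libraries.

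With 1 library left out at a time, auxin lost 3 to 7 and gained 5 to 12, AID_wash lost 3 to 12 and gained 0 to 3 against AID_aux, and lost 2 to 10 and gained 1 to 6 against AID_ctrl. KO lost 1 to 10 and gained 35 to 60. The share called in all degron libraries was 56.4% to 61.1%, and in all WT and KO libraries 35.5% to 54.4%. AID_aux was below AID_ctrl in 24 to 28 regions and above in 26 to 28, and below the other degron libraries in 8 to 17 and above in 11 to 20. Fewer libraries then have to concur. With a replicate block, added after seeing the data, in which AID_aux was compared with AID_ctrl within each replicate number, it was below in both pairs in 19 regions and above in both in 19. Lost and gained calls are the same when required within both pairs. The samples share only a number: over 62170 regions called in all 6 degron libraries, the deviations of same-numbered AID_ctrl and AID_aux libraries correlated at 0.00995.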
